A study of Arabidopsis thaliana with 24 samples.

Results

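Wild-type Arabidopsis thaliana seedlings treated with elf18 for 6 h were compared with wild-type seedlings at 0 h, by sequencing polyadenylated RNA from whole seedlings. The comparison uses 6 of the 24 libraries of the series, 3 biological replicates at each time per the labels, and 21015 of the 21407 loci counted had enough reads to be tested. All plants were of the Col-0 ecotype and 2 weeks old. The 0 h seedlings received no elf18, and the labels do not say whether they were moved to liquid medium. The 6 h seedlings had been moved from solid medium to liquid medium that held sucrose and elf18 at 5 µM, and stayed there until harvest. There was no group moved to liquid medium without the peptide, so the peptide, the move to liquid medium and the hour of day are bound together in every difference between 0 h and 6 h and cannot be told apart. The other groups used beside this comparison were wild type at 1 h and 12 h of elf18, which share the 0 h libraries, and seedlings overexpressing the long noncoding RNA ELENA1 (the overexpressor) at 0 h and 6 h, which share none. The promoter that drives ELENA1 and the number of transgenic lines are not given in the labels, and the ELENA1 locus itself was not analysed here.

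The peptide elf18 is a fragment from the amino-terminal end of the bacterial elongation factor EF-Tu. In Arabidopsis it binds the receptor kinase EFR at the cell surface, which pairs with the co-receptor BAK1 and sets off a burst of reactive oxygen, MAP kinase activity and transcription driven in part by WRKY factors. Flagellin, perceived by the related receptor FLS2, starts a largely shared programme. Known later outputs in seedlings are salicylic acid and phenylpropanoid synthesis, secretion of defence proteins and slower growth.

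The 6 libraries held 49615419, 52954893 and 23645600 counts at 0 h and 52063126, 56672924 and 20785309 counts at 6 h. The 10 most abundant loci took 3.01 to 4.18% of a library. Libraries of a group differed little, with a median SD of log2 CPM, the unit of counts scaled to library size, of 0.132 at 0 h and 0.108 at 6 h. Replicate 1 of 0 h stood apart in direction. Of the 3 libraries at 0 h it was the highest for 64.1% of the genes that were at least 2-fold higher at 6 h, and the lowest for 67.6% of those at least 2-fold lower. Without it, 1290 in place of 1168 genes were at least 2-fold higher and 1673 in place of 1425 at least 2-fold lower. Markers of seedling tissues were present in every library. The summed level of 13 root and root hair markers was 93.3 to 121 CPM at 0 h and 94.7 to 102 CPM at 6 h, that of 11 stomatal markers 65.6 to 76.2 and 72.6 to 75.2 CPM, and that of 6 phloem and xylem markers 189 to 232 and 185 to 204 CPM. The flower genes AP1 and AG stayed under 0.2 CPM in all 6 libraries. In whole seedlings, fewer cells of a type and less RNA per cell cannot be told apart.

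At an adjusted p under 0.05 the levels of 12152 genes, 57.8% of those tested, differed between 6 h and 0 h. Every adjusted p is from edgeR's quasi-likelihood test with Benjamini-Hochberg adjustment over all genes tested, and n = 3 libraries a group throughout. Of these genes 6254 (29.8%) were higher and 5898 (28.1%) lower at 6 h, and the median size of a called change was 0.564 on the log2 scale. A change of at least 2-fold was seen in 1168 genes upward (5.56%) and 1425 downward (6.78%). These shares are the background beside which each gene list is given. The lists were chosen with earlier results of these data known, so a list that departs from the background is described and not tested. No such share is given for genes whose groups did not overlap, and the largest changes named were chosen for it. Statements of no overlap therefore only describe the genes named. With library totals in place of TMM scaling the median of all genes moved from -0.01 to -0.15, and the share of calls that were higher moved from 51.5 to 36.3%, with 4527 genes higher and 7956 lower.

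**Figure D1:**
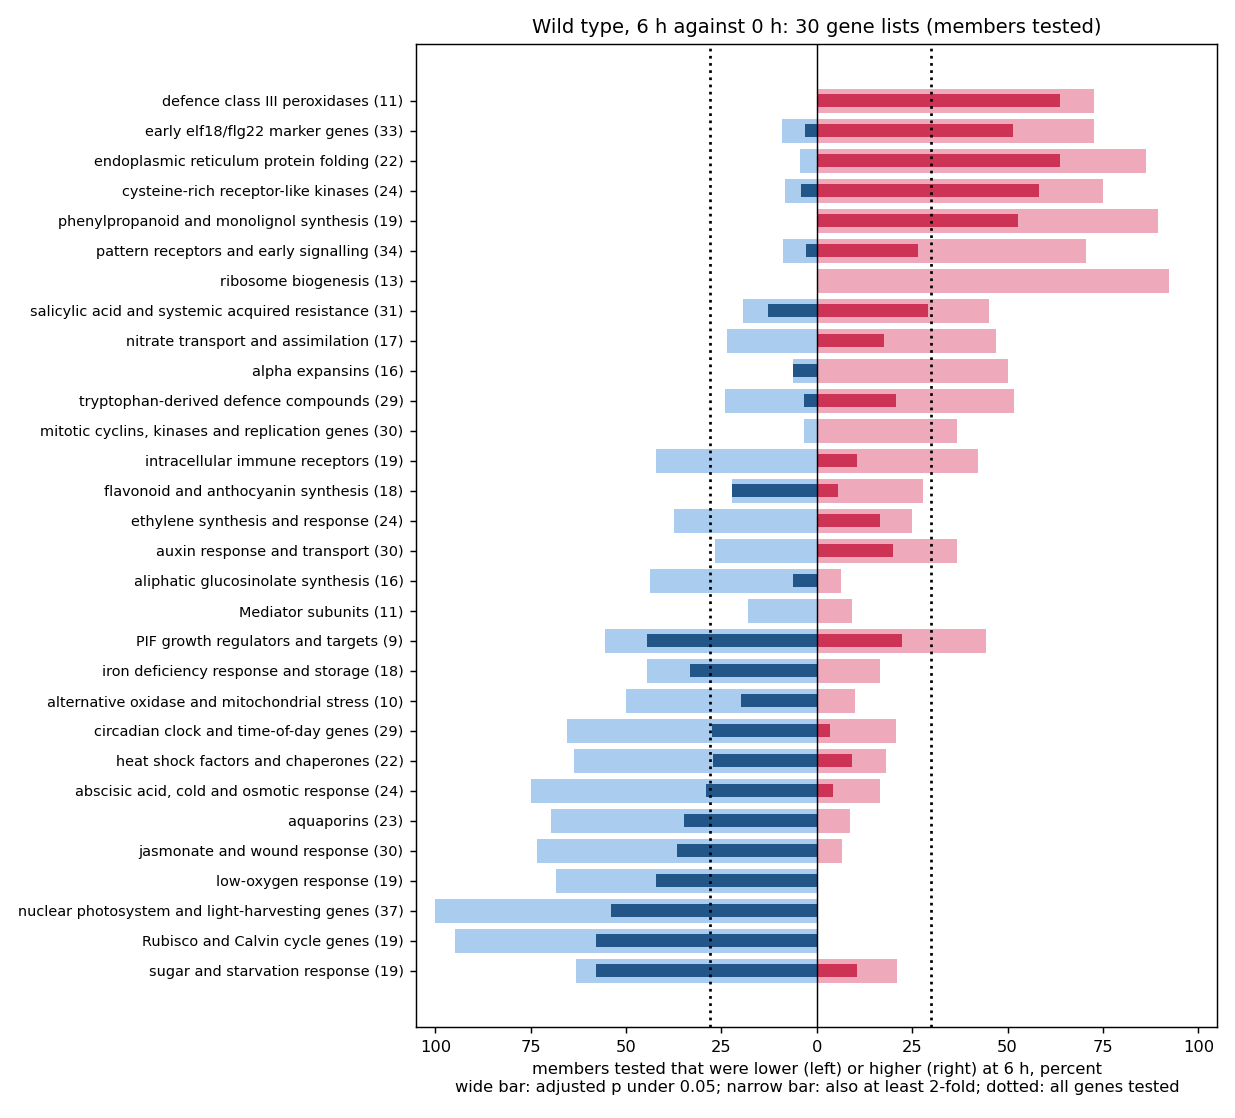
Share of the tested members of 30 gene lists that were lower (left, blue) or higher (right, red) in wild type at 6 h than at 0 h, in percent. Wide bars count members with an adjusted p under 0.05, narrow bars those that were also changed at least 2-fold, and the dotted lines mark the shares of all genes (28.1% lower, 29.8% higher). Peroxidases, early markers, protein folding and receptor-like kinase lists lie to the right, and photosynthesis, sugar and jasmonate lists to the left.

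Genes known as early markers of elf18 or flagellin perception were mostly higher at 6 h. Of 33 tested, 24 were higher and 3 lower, 17 were at least 2-fold higher and 1 at least 2-fold lower, and their median log2 fold change was 1.18. FRK1, a receptor-like kinase gene named for its induction by flagellin, was at 22.7, 9.31 and 11.7 CPM at 0 h and at 760, 685 and 616 CPM at 6 h (log2 fold change 5.55 ± 0.31 SE, adjusted p = 1.6e-12). Even its lowest 6 h library lay far above the highest 0 h library, which was replicate 1. The transcription factor gene WRKY30 was close to the floor at 0 h (0.556, 0.363 and 0.418 CPM) and at 11.4, 11 and 14.3 CPM at 6 h (4.74 ± 0.19, adjusted p = 7.2e-15). The peroxidase gene PER4 went from 2.48, 1.49 and 2.89 CPM to 35.7, 39.0 and 37.5 CPM (4.09 ± 0.20, adjusted p = 1.2e-13). PUB22, for an E3 ubiquitin ligase that dampens the response to bacterial patterns, rose by 2.44 ± 0.14 (adjusted p = 1.4e-12). PROPEP3, the precursor of an endogenous danger peptide, rose by 4.09 ± 0.25 (adjusted p = 8.6e-12).

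The early markers did not move as a block. ERF6, an ethylene response factor gene, fell from 53.2, 34.1 and 99.9 CPM to 15.3, 19.5 and 19.7 CPM (-1.77 ± 0.23, adjusted p = 9.7e-07). The zinc finger gene ZAT12 also fell (-0.68 ± 0.17, adjusted p = 0.0014). WRKY33, WRKY40, SZF2, ZAT10, CML37 and MYB51 did not pass the test. WRKY33, a regulator of camalexin synthesis, stood at 296, 181 and 301 CPM at 0 h and 225, 227 and 200 CPM at 6 h, with overlapping groups. The 1 h libraries give the same genes at another stage. At 1 h the list's median against the same 0 h libraries was 2.34, and the level of WRKY30 was 7.98 log2 units over 0 h, and 6 h lay 3.25 ± 0.13 units under 1 h (adjusted p = 1.9e-15). FRK1 ran the other way, 2.90 ± 0.27 units higher at 6 h than at 1 h (adjusted p = 3.0e-09).

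Upstream sequences of 4 genes from the defence lists that rose are printed to show the W-box, the element that WRKY factors bind. Each line holds the 250 bases before the annotated gene start in the TAIR10.1 genome from RefSeq, 5′ to 3′ on the strand of the gene, with TTGACC or TTGACT on either strand in capitals. The window of FRK1 is chr2:8329945-8330194 on the minus strand, with matches whose first bases lie 47 and 29 bases before the gene start. That of WRKY30 is chr5:8154711-8154960 on the minus strand, with 3 matches. That of the peroxidase gene PRX71 is chr5:25661008-25661257 on the minus strand, with 3 matches. That of the cysteine-rich receptor-like kinase gene CRK11 is chr4:12143859-12144108 on the minus strand, with 4 matches, 2 of them back to back.
FRK1: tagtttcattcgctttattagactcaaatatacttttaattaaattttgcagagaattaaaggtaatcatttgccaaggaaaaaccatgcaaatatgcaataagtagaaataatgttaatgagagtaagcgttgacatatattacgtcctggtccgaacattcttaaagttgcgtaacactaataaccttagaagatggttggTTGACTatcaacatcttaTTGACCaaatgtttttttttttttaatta
WRKY30: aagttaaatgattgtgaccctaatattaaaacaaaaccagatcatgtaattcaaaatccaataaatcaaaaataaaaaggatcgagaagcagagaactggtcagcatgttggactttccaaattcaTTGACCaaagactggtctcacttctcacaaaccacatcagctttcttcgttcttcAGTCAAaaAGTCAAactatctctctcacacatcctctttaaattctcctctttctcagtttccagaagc
PRX71: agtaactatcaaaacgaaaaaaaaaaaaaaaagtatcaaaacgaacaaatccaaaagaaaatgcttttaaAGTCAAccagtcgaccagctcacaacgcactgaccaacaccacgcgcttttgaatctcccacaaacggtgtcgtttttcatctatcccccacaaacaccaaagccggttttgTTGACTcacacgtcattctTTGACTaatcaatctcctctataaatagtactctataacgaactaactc
CRK11: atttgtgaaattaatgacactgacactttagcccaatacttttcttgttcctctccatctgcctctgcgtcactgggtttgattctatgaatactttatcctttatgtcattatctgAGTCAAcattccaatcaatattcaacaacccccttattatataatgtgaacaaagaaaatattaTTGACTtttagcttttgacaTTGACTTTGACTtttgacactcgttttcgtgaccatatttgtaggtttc

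Windows of this kind were read for 20948 of the genes tested. TTGACC or TTGACT stood in 28.8% of all windows, in 46.5% of those of 1166 genes at least 2-fold higher at 6 h, in 24.7% of those of 1423 genes at least 2-fold lower and in 27.5% of those of 8822 genes that did not pass the test. Taken apart, TTGACT was in 35.5% of the windows of the higher genes and 19.2% of all, and TTGACC in 18.4 and 12.4%. Of the early markers 63.6% held a W-box, of the cysteine-rich receptor-like kinases 58.3% and of the pattern receptor list 58.8%, against 13.6% of the protein folding list, which also rose. Defence lists were not alike in this. The share was 45.5% in the defence peroxidase list and 44.8% in the tryptophan list. In the salicylic acid list it was 19.4% and in the phenylpropanoid list 26.3%, both under the share of all windows. The CAMTA box CGCGT, which calmodulin-binding transcription activators bind, was in 11.4% of the windows of the higher genes and 7.39% of all. Mean GC content differed little between the sets (30.9% in the higher genes, 31.2% in the lower, 31.4% in all). These shares describe letters in a window, and binding was not tested.

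**Figure D2:**
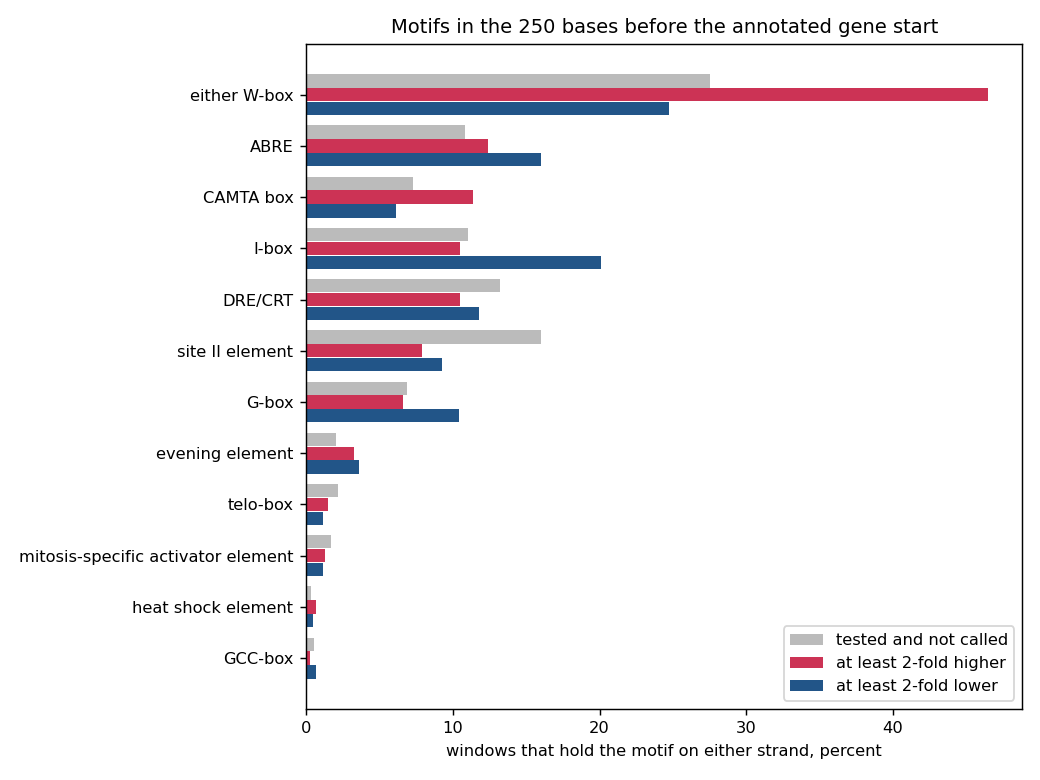
Percent of 250-base upstream windows that hold each of 12 motifs on either strand, for genes at least 2-fold higher in wild type at 6 h (red, 1166 windows), at least 2-fold lower (blue, 1423) and tested but not called (grey, 8822). The W-box stands out in the higher set at 46.5% and the I-box in the lower set with 286 of 1423 windows. The site II element is less frequent in the higher (7.89%) and lower (9.28%) sets than in the set not called (16.0%), which is near the 15.9% of all windows.

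Genes for pattern receptors, EFR and those for other ligands, and for early signalling were mostly higher at 6 h. Of 34 genes tested 24 were higher and 3 lower, with 9 at least 2-fold higher and 1 at least 2-fold lower and a median of 0.69. EFR, the elf18 receptor gene, was at 20.9, 18 and 15.5 CPM at 0 h and at 49.5, 45.3 and 46.6 CPM at 6 h (1.38 ± 0.08, adjusted p = 5.1e-12). The flagellin receptor gene FLS2 went from 85.5, 73.0 and 57.6 CPM to 147, 135 and 145 CPM (0.98 ± 0.10, adjusted p = 1.9e-08). Neither gene overlapped between the groups. CERK1, whose product takes part in chitin perception, rose by 1.23 ± 0.08 (adjusted p = 3.7e-11), and LORE, a receptor kinase gene for bacterial lipid-related patterns, by 1.5 ± 0.10 (adjusted p = 4.8e-11). The receptor-like cytoplasmic kinase gene PBL1 rose by 1.07 ± 0.07 (adjusted p = 2.8e-11).

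Other members of the list, picked for their roles after their values were seen, rose less. The co-receptor gene BAK1 rose by 0.52 ± 0.06 (adjusted p = 9.9e-08), BIK1, a kinase that acts directly under the receptors, by 0.78 ± 0.08 (adjusted p = 1.2e-08) and the MAP kinase gene MPK4 by 0.74 ± 0.09 (adjusted p = 5.6e-07). PEPR1 and PEPR2, receptors for the danger peptides of the PROPEP family, fell. PEPR1 was at 77.9, 97.5 and 104 CPM at 0 h and 41.3, 42.1 and 40.4 CPM at 6 h (-1.17 ± 0.11, adjusted p = 1.3e-08), and PEPR2 fell by 0.82 on the log2 scale (SE 0.15, adjusted p = 7.3e-05). RBOHD, the oxidase gene of the reactive oxygen burst, was at 150, 94.0 and 104 CPM at 0 h and at 130, 124 and 116 CPM at 6 h, with overlapping groups and no call (0.09 ± 0.13, adjusted p = 0.59). At 1 h it had stood 3.26 log2 units over the same 0 h libraries. MPK3 and the calcium-dependent kinase gene CPK28 did not pass at 6 h either.

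**Figure D3:**
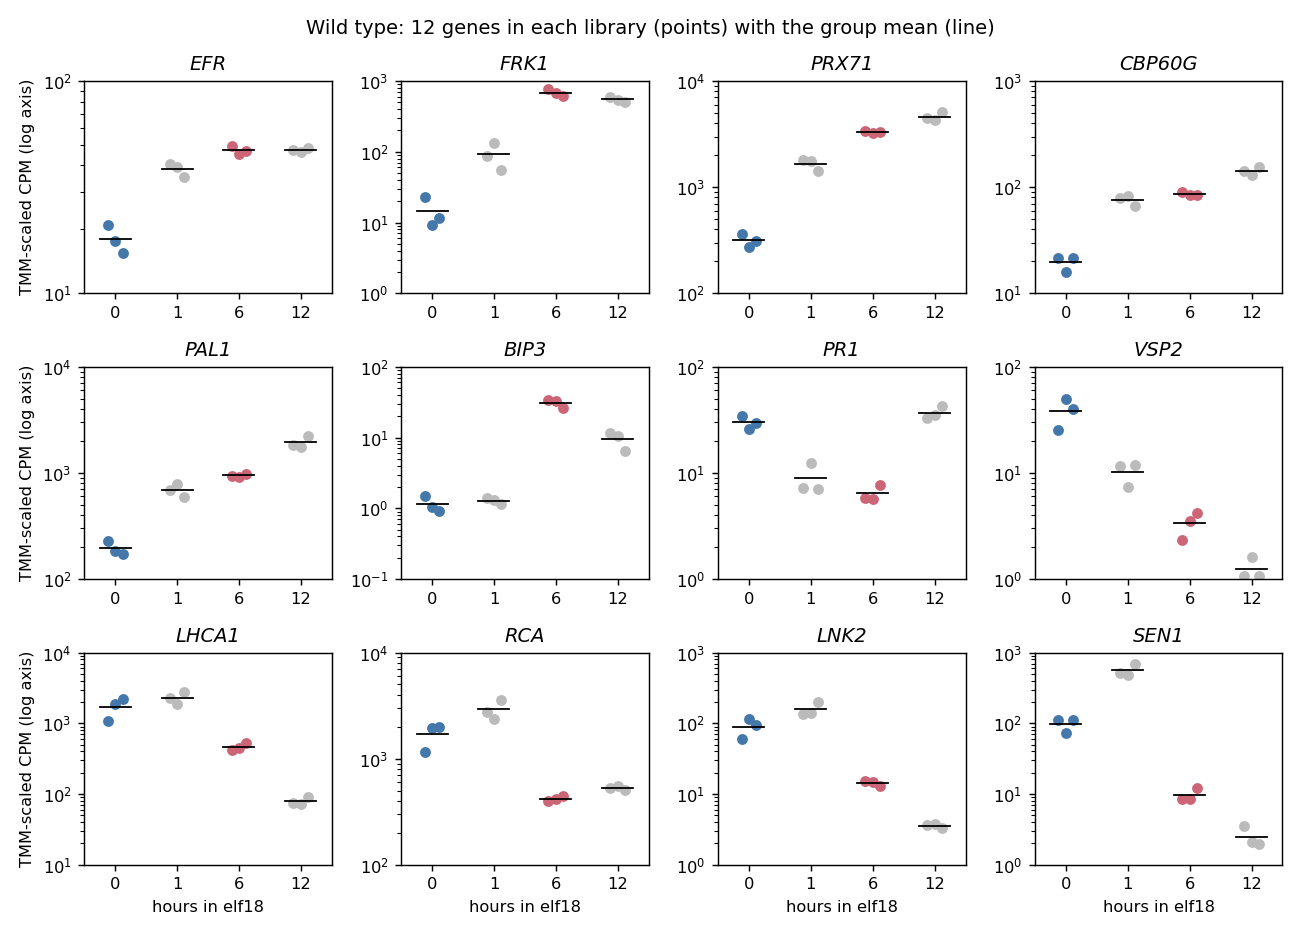
Levels of 12 genes in wild type in TMM-scaled CPM on log axes, with hours in elf18 on the horizontal axis. Each point is a library (blue 0 h, red 6 h, grey 1 h and 12 h) and each line the mean of 3. EFR, FRK1, PRX71, CBP60G, PAL1 and BIP3 are higher at 6 h than at 0 h, PR1, VSP2, LHCA1, RCA, LNK2 and SEN1 are lower, and no 0 h point overlaps the 6 h points in any panel.

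Receptor-like kinases with cysteine-rich extracellular domains (CRKs), a family known for induction by pathogens and salicylic acid, formed a further rising group. Of 24 tested, 18 were higher and 2 lower, with 14 at least 2-fold higher and a median of 1.12. CRK21 was even across replicates, at 17.7, 17.2 and 17.2 CPM at 0 h and 116, 107 and 114 CPM at 6 h (2.69 ± 0.09, adjusted p = 5.5e-16). CRK45 went from 18, 9.77 and 9.5 CPM to 111, 118 and 112 CPM (3.19 ± 0.16, adjusted p = 3.7e-13). CRK2 (2.09 ± 0.10, adjusted p = 1.5e-13) and CRK11 (1.52 ± 0.08, adjusted p = 4.9e-13) rose as well. CRK4 ran against the family and fell from 2.14, 3.23 and 2.47 CPM to 0.463, 0.389 and 0.282 CPM (-2.71 ± 0.29, adjusted p = 5.9e-08). CRK10 fell by 0.40 on the log2 scale (SE 0.10, adjusted p = 0.0016). Several CRK genes are tandem copies, so the split of reads between close members is uncertain. By annotation keyword, 32 of 68 lectin receptor kinase genes were higher and 14 lower, with 17 at least 2-fold higher and 2 at least 2-fold lower, and among 64 WRKY genes 27 were higher and 13 lower, with 19 at least 2-fold higher and 0 at least 2-fold lower.

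Intracellular immune receptors were split evenly. Of 19 tested, 8 were higher, 8 lower and 3 did not pass, and the median was 0.07 with TMM and -0.07 with library totals. RPM1, the receptor for the bacterial effectors AvrRpm1 and AvrB, rose by 1.45 ± 0.12 (adjusted p = 4.7e-10), and ZAR1 rose by 1.06 ± 0.11 (adjusted p = 1.7e-08). RPS4 fell by 0.89 (SE 0.09, adjusted p = 3.7e-08) and the helper receptor gene NRG1.1 by 0.72 on the log2 scale (SE 0.08, adjusted p = 2.0e-07).

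Defence peroxidases of class III, secreted enzymes that act on the cell wall, had the highest list median at 1.66. Of 11 tested, 8 were higher, 7 of them at least 2-fold, and 0 lower. PRX71 was at 360, 273 and 313 CPM at 0 h and at 3380, 3240 and 3340 CPM at 6 h (3.40 ± 0.12, adjusted p = 8.8e-16), which placed it among the 10 most abundant loci at 6 h. PRX62 went from 141, 45.6 and 58 CPM to 1270, 1220 and 1350 CPM (3.97 ± 0.26, adjusted p = 2.7e-11). Its 0 h replicate 1 lay above the others and still far under the 6 h libraries. PRX52 rose by 3.58 ± 0.31 (adjusted p = 2.0e-09). PRX33 and PRX34, known for their part in the oxidative burst of cultured Arabidopsis cells, did not pass (0.08 ± 0.09 and -0.18 ± 0.10). In the whole family of 79 genes found by annotation, 29 were higher and 23 lower, with a median of 0.02.

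Salicylic acid genes went in both directions. Of 31 tested, 14 were higher and 6 lower, with 9 at least 2-fold higher, 4 at least 2-fold lower and a median of 0.38. The transcription factor gene CBP60G, a regulator of salicylic acid synthesis, was at 21.5, 15.9 and 21.5 CPM at 0 h and at 90.8, 84.9 and 83.5 CPM at 6 h (2.14 ± 0.11, adjusted p = 1.7e-13). ICS1, for the enzyme that makes isochorismate, the precursor of salicylic acid, went from 36.5, 25.9 and 25.6 CPM to 108, 103 and 94.5 CPM (1.79 ± 0.13, adjusted p = 6.9e-11). SARD4, which acts in the synthesis of the mobile signal pipecolic acid, rose by 1.63 ± 0.09 (adjusted p = 9.1e-13), and NIMIN1, a salicylic acid-induced gene for an NPR1-interacting protein, by 3.06 ± 0.19 (adjusted p = 9.7e-12).

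Other salicylic acid-responsive genes fell. PR1, the marker gene of the salicylic acid response, was at 34.4, 26.2 and 29.5 CPM at 0 h and at 5.83, 5.71 and 7.66 CPM at 6 h (-2.26 ± 0.31, adjusted p = 1.5e-06). All 3 libraries at 6 h lay under all 3 at 0 h. LURP1 fell from 25.5, 13.7 and 13.0 CPM to 1.65, 3.06 and 2.07 CPM (-2.93 ± 0.29, adjusted p = 1.9e-08). At 12 h both were back up, PR1 by 2.54 ± 0.31 over 6 h (adjusted p = 9.6e-07) and LURP1 by 5.43 ± 0.30 (adjusted p = 8.8e-12). The glucanase gene PR2 was uneven at 0 h (9.70, 25.7 and 7.94 CPM) and at 5.14, 2.54 and 7.57 CPM at 6 h (-1.63 ± 0.35, adjusted p = 0.00042). NPR1, NPR3 and NPR4, the salicylic acid receptor genes, did not pass. The median of the list at 12 h was 2.12 against the same 0 h libraries.

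Jasmonate and wound genes went down. Of 30 tested, 22 were lower, 11 of them at least 2-fold, and 2 were higher, COI1 by 0.21 ± 0.07 (adjusted p = 0.011) and AOC3 by 0.44 ± 0.19 (adjusted p = 0.046). The AOC3 call was lost without 4 of the libraries taken out in turn, and COI1 did not pass with library totals (0.07). The repressor gene JAZ9 was at 99.9, 128 and 118 CPM at 0 h and at 16.1, 18 and 14.9 CPM at 6 h (-2.82 ± 0.15, adjusted p = 6.2e-13). VSP2, a vegetative storage protein gene used as a jasmonate marker, fell from 25.5, 50.2 and 40.0 CPM to 2.33, 3.56 and 4.18 CPM (-3.57 ± 0.24, adjusted p = 3.9e-11). AOC2, for a step of jasmonate synthesis, fell by 2.37 (SE 0.18, adjusted p = 3.0e-10) and JAZ7 by 2.60 on the log2 scale (SE 0.22, adjusted p = 1.1e-09). MYC2, the transcription factor gene at the head of the wound branch, was at 66.7, 80.4 and 90.3 CPM at 0 h and 36.0, 38.7 and 36.2 CPM at 6 h. JAZ1 and LOX4 had overlapping groups and did not pass. At 1 h the list median over the same 0 h libraries was 0.42 and at 6 h -0.88.

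In the ethylene list the rise was held by genes for ACC synthase, the enzyme that sets the rate of ethylene production. Of 24 genes, 6 were higher and 9 lower, and the 4 that were at least 2-fold higher were ACS7, ACS11, ACS8 and ACS2. ACS7 was at 18.7, 6.32 and 9.80 CPM at 0 h and at 200, 183 and 204 CPM at 6 h (4.07 ± 0.25, adjusted p = 8.9e-12). ACS11 went from 2.73, 1.24 and 1.67 CPM to 25.5, 16.8 and 18.8 CPM (3.42 ± 0.24, adjusted p = 4.7e-11). ACS6, a target of MAP kinases in the same family, did not pass (0.07 ± 0.14). The signalling genes EIN2, EIN3, EIL1 and CTR1 were lower by 0.29 to 0.45 on the log2 scale.

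Phenylpropanoid and monolignol synthesis, the route from phenylalanine to lignin and soluble phenolics, rose along most of its steps. Of 19 genes 17 were higher, 10 of them at least 2-fold, and 0 were lower, with a median of 1.03. PAL1, for the entry enzyme, was at 226, 183 and 173 CPM at 0 h and at 934, 925 and 986 CPM at 6 h (2.29 ± 0.14, adjusted p = 6.9e-12). C4H, for the next enzyme, went from 251, 207 and 204 CPM to 914, 965 and 935 CPM (2.09 ± 0.13, adjusted p = 7.8e-12). The regulator gene MYB15 rose by 3.34 ± 0.24 (adjusted p = 8.6e-11). The 6 h libraries lay above all 0 h libraries for each of these 3 genes. PAL3 and PAL4 did not pass (-0.07 ± 0.10 and -0.20 ± 0.16). The PAL genes share sequence, so their separate values are uncertain. In the neighbouring flavonoid list 5 of 18 genes were higher and 4 lower, and its median was 0.05 with TMM and -0.09 with library totals. MYB111, a flavonol regulator gene, rose by 1.69 ± 0.15 (adjusted p = 4.0e-09) and MYBL2, a repressor gene of anthocyanin synthesis, fell by 1.87 (SE 0.16, adjusted p = 2.3e-09).

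Genes for defence compounds made from tryptophan were mixed in direction. Of 29 tested, 15 were higher and 7 lower, with 6 at least 2-fold higher and 1 at least 2-fold lower. PEN2, the myrosinase gene that activates indole glucosinolates, was at 287, 214 and 247 CPM at 0 h and at 689, 715 and 685 CPM at 6 h (1.48 ± 0.10, adjusted p = 2.7e-11). CYP83B1 and CYP81F2, for steps of indole glucosinolate synthesis and its modification, rose by 1.07 ± 0.11 (adjusted p = 4.1e-08) and 1.23 ± 0.14 (adjusted p = 9.6e-08). IGMT1, a methyltransferase gene of the same route, fell from 77.8, 69.4 and 101 CPM to 24.4, 29.1 and 29.6 CPM (-1.58 ± 0.14, adjusted p = 4.6e-09). PYK10, a beta-glucosidase gene best known from root endoplasmic reticulum bodies, fell by 0.85 on the log2 scale (SE 0.10, adjusted p = 1.2e-07). PAD3, for the last step of camalexin synthesis, was at 100, 105 and 92.1 CPM at 0 h and 50.4, 55.7 and 49.5 CPM at 6 h. The aliphatic glucosinolate list had 1 gene higher and 7 lower of 16, and a median of -0.18. Its lowest member, the regulator gene MYB76, stayed under 1 CPM in all 6 libraries.

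Protein folding genes of the endoplasmic reticulum were mostly higher at 6 h than at 0 h. Of 22 tested, 19 were higher and 1 lower, 14 were at least 2-fold higher, and the median was 1.14 at 6 h against -0.18 at 1 h over the same 0 h libraries. These chaperones serve the folding of secreted and membrane proteins, EFR among them. BIP3, the inducible member of the BiP chaperones, was at 1.48, 1.04 and 0.912 CPM at 0 h and at 33.4, 32.6 and 26.3 CPM at 6 h (4.71 ± 0.21, adjusted p = 3.8e-14). The co-chaperone gene ERDJ3A went from 8.19, 9.21 and 8.74 CPM to 41.8, 41.2 and 38.2 CPM (2.21 ± 0.10, adjusted p = 4.8e-14), and ERDJ3B, which is needed for EFR accumulation, from 85.4, 70.1 and 73.1 CPM to 235, 235 and 242 CPM (1.64 ± 0.08, adjusted p = 8.6e-14). Calnexin, encoded by CNX1, rose by 1.54 ± 0.09 (adjusted p = 4.7e-12). Against 1 h, BIP3 was 4.55 ± 0.22 log2 units higher at 6 h (adjusted p = 3.2e-14) and then fell by 1.67 (SE 0.17, adjusted p = 7.7e-08) to 12 h. The stress sensor gene IRE1A was the member that fell (-0.26 ± 0.09, adjusted p = 0.02), a call lost without 0 h replicate 1, 6 h replicate 2 or 6 h replicate 3. IRE1B and BZIP28 did not pass. The G-box CACGTG stood in 31.8% of this list's windows and 7.2% of all.

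Ribosome genes rose by smaller steps. Of 13 ribosome biogenesis genes 12 were higher and 0 lower, none by 2-fold, with a median of 0.54. SWA1 was at 59.0, 55.5 and 50.3 CPM at 0 h and at 84.5, 85.9 and 92.9 CPM at 6 h (0.67 ± 0.08, adjusted p = 1.6e-07). CBF5, for the pseudouridine synthase of ribosomal RNA, rose by 0.63 ± 0.08 (adjusted p = 2.8e-07), FIB2, for fibrillarin, by 0.74 ± 0.09 (adjusted p = 6.4e-07), and NOP58-2 by 0.47 ± 0.07 (adjusted p = 3.3e-06). Among 322 ribosomal protein genes found by annotation 254 were higher and 38 lower, with a median of 0.57. Among 27 proteasome subunit genes 26 were higher and 0 lower, with a median of 0.61, and 0 of them reached 2-fold. The site II element TGGGCC, known from promoters of ribosomal and cell division genes, was in 61.5% of the windows of the biogenesis list (8 of 13) and 15.9% of all. It was also in 45.5% of the windows of the heat shock list, which was mostly lower, and 36.4% of those of the Mediator list. In the list of mitotic and replication genes the share was 16.7%.

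Nuclear genes of the photosystems went down without exception among the 37 tested. All 37 were lower, 20 of them at least 2-fold, and the median was -1.10 (-1.29 without 0 h replicate 1). LHCB2.3, a light-harvesting protein gene, was at 46.2, 113 and 122 CPM at 0 h and at 5.26, 6.76 and 8.51 CPM at 6 h (-3.81 ± 0.31, adjusted p = 6.5e-10). LHCA1 fell from 1090, 1850 and 2190 CPM to 419, 451 and 532 CPM (-1.87 ± 0.18, adjusted p = 1.2e-08), and PSBO2, for a subunit of the oxygen-evolving complex, from 219, 388 and 425 CPM to 79.6, 90.9 and 105 CPM (-1.91 ± 0.19, adjusted p = 1.2e-08). In all of these genes 0 h replicate 1 was the lowest of the 0 h libraries and lay above every 6 h library. LHCB2.2 fell by 1.92 on the log2 scale (SE 0.20, adjusted p = 3.5e-08). LHCB1.3, among the most abundant loci at both times, fell less, from 4610, 7410 and 9270 CPM to 3650, 4050 and 4810 CPM (-0.77 ± 0.20, adjusted p = 0.0023). There the highest 6 h library was above the lowest 0 h library. Light-harvesting genes share sequence, so the values of single LHCB1 and LHCB2 copies are uncertain.

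Rubisco and Calvin cycle genes followed. Of 19 tested 18 were lower, 11 at least 2-fold, and 0 higher, with a median of -1.14. PRK, for phosphoribulokinase, was at 283, 451 and 470 CPM at 0 h and at 83.0, 86.6 and 101 CPM at 6 h (-2.15 ± 0.17, adjusted p = 3.5e-10). RCA, for the activase of Rubisco, fell from 1150, 1950 and 2000 CPM to 397, 418 and 443 CPM (-2.02 ± 0.17, adjusted p = 8.0e-10). CP12-2, for a regulatory linker of the cycle, fell by 3.09 (SE 0.24, adjusted p = 3.6e-10) and SBPASE by 1.17 on the log2 scale (SE 0.11, adjusted p = 4.3e-09). From 6 h to 12 h members of both chloroplast lists took different courses. LHCA1 fell by a further 2.57 (SE 0.19, adjusted p = 6.6e-10) over that step, while CP12-2 rose by 2.28 ± 0.24 (adjusted p = 1.3e-07). RCA (0.33 ± 0.16, adjusted p = 0.083), PSBO2 (0.30 ± 0.18, adjusted p = 0.16) and SBPASE (0.04 ± 0.11, adjusted p = 0.75) did not pass. The triose phosphate isomerase gene TPI was the member of the cycle list that did not pass at 6 h.

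The upstream windows of LHCA1 and of SEN1, a gene of the sugar list, are printed for the I-box GATAAG, an element known from light-regulated promoters, again as the 250 bases before the gene start in TAIR10.1 with matches on either strand in capitals. The window of LHCA1 is chr3:20341177-20341426 on the minus strand, and that of SEN1 is chr4:16944628-16944877 on the plus strand.
LHCA1: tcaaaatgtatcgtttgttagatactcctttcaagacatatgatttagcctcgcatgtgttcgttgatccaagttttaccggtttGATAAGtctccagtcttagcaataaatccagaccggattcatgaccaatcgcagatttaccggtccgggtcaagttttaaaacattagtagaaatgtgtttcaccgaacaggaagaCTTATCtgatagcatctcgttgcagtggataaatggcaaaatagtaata
SEN1: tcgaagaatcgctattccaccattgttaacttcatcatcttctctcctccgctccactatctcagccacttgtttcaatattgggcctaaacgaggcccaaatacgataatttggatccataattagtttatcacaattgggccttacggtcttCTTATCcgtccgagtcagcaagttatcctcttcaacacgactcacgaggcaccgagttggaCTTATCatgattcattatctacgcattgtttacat

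GATAAG was in 286 of the 1423 windows of genes at least 2-fold lower at 6 h, 10.5% of those at least 2-fold higher, 12.3% of all windows and 27% of those of the photosystem list. That share was not particular to photosystem genes. It was 36.8% in the sugar list, 27.3% in the heat shock list and 31.6% in the list of intracellular immune receptors, which were split evenly. In the protein folding list, which rose, it was 4.55%. The G-box was in 10.4% of the lower set, 6.6% of the higher set and 7.2% of all.

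Sugar and starvation genes had the lowest list median, -1.36. Of 19 tested, 12 were lower, 11 of them at least 2-fold, and 4 were higher. SEN1, a gene of dark-induced senescence, was at 112, 73.6 and 111 CPM at 0 h and at 8.42, 8.38 and 12.0 CPM at 6 h (-3.39 ± 0.23, adjusted p = 4.7e-11). TPS11, of the trehalose-phosphate synthase family that starvation induces, went from 116, 72.5 and 110 CPM to 16.9, 16.2 and 17.2 CPM (-2.57 ± 0.17, adjusted p = 1.7e-11). BGAL4, a beta-galactosidase gene, fell by 1.7 on the log2 scale (SE 0.11, adjusted p = 9.2e-12). The sugar carrier gene STP4 rose, from 103, 85.8 and 112 CPM to 238, 222 and 237 CPM (1.21 ± 0.09, adjusted p = 8.6e-11), as did STP13 (0.58 ± 0.08, adjusted p = 2.0e-06). At 1 h the list had stood at a median of 1.41 over the same 0 h libraries, and SEN1 was 5.89 ± 0.26 log2 units lower at 6 h than at 1 h (adjusted p = 7.3e-15). The liquid medium of the later samples held sucrose, and its part in these values was not tested.

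Nitrate and ammonium transport genes rose in part, and a further transporter gene had the largest rise among called genes that averaged a log2 CPM of at least 1. That average was over the 0 h and 6 h libraries together, so a gene near the floor at 0 h could pass through its 6 h level. This gene did so, and the size of its rise rests on very low 0 h levels. ATNRT2.5 (AT1G12940), a high-affinity nitrate transporter gene, was at 0.503, 0.297 and 0.418 CPM at 0 h and at 34.4, 29.8 and 38.4 CPM at 6 h (6.39 ± 0.21, adjusted p = 5.4e-16). Its 1 h value was 0.18 over 0 h, and the step from 1 h to 6 h was 6.21 ± 0.22 (adjusted p = 2.8e-16). NAR2.1, for the partner protein of such transporters, went from 39.7, 32.5 and 40.3 CPM to 209, 204 and 223 CPM (2.50 ± 0.09, adjusted p = 2.4e-15). The ammonium transporter gene AMT1;1 rose by 2.04 ± 0.10 (adjusted p = 9.5e-14) and NRT1.1, a nitrate transporter and sensor gene, by 1.17 ± 0.09 (adjusted p = 5.1e-10). Of the list of 17, which does not hold ATNRT2.5, 8 were higher and 4 lower. NIA1, a nitrate reductase gene, fell by 0.54 on the log2 scale (SE 0.13, adjusted p = 0.0013), and NLP7, a nitrate sensor gene, by 0.83 (SE 0.11, adjusted p = 1.5e-06).

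Clock and time-of-day genes were mostly lower at 6 h, and for them too the hour of day cannot be told apart from the treatment. Of 29 tested 19 were lower and 6 higher, with 8 at least 2-fold lower and 1 at least 2-fold higher, and the median was -0.53. LNK2, a morning co-activator gene, was at 59.1, 116 and 95.1 CPM at 0 h and at 15.5, 14.8 and 12.9 CPM at 6 h (-2.64 ± 0.21, adjusted p = 4.0e-10). PRR7 fell from 124, 155 and 152 CPM to 60.3, 51.8 and 48.7 CPM (-1.42 ± 0.14, adjusted p = 1.3e-08), RVE4 by 1.45 (SE 0.14, adjusted p = 1.4e-08) and CCA1, a core morning factor, by 2.13 on the log2 scale (SE 0.22, adjusted p = 3.4e-08). GRP7 and GRP8, RNA-binding protein genes under clock control, rose. GRP7 was at 1240, 1150 and 1300 CPM at 0 h and at 2340, 2630 and 2460 CPM at 6 h (1.01 ± 0.12, adjusted p = 2.4e-07), and GRP8 rose by 0.83 ± 0.09 (adjusted p = 3.6e-08). At 1 h the log2 fold change of GRP7 over the same 0 h libraries had been -2.05. The evening gene TOC1 fell by 0.20 on the log2 scale (SE 0.07, adjusted p = 0.014) and GI did not pass.

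The window of GRP7, chr2:9266558-9266807 on the minus strand of TAIR10.1, is printed for its evening elements, AAAATATCT on either strand, in capitals.
GRP7: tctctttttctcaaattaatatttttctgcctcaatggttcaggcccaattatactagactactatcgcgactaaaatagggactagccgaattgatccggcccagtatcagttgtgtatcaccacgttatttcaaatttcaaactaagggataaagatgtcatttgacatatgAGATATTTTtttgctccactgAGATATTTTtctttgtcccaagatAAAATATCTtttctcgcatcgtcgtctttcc

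Its 3 matches start 76, 55 and 31 bases before the gene start. The evening element was in 27.6% of the windows of the clock list, 2.52% of all windows, 3.26% of the set at least 2-fold higher and 3.58% of the set at least 2-fold lower.

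Growth genes moved in several directions. In the auxin list 11 of 30 were higher and 8 lower, with 6 at least 2-fold higher and 0 at least 2-fold lower. Of all genes tested 29.8% were higher and 28.1% lower, so the counts of 11 and 8 were near the background. The shares of all genes changed at least 2-fold were 5.56% higher and 6.78% lower. GH3.3 and GH3.5, for enzymes that conjugate auxin to amino acids, rose by 1.90 ± 0.12 (adjusted p = 8.9e-12) and 1.94 ± 0.12 (adjusted p = 4.4e-12), and the response gene IAA19 went from 4.1, 3.91 and 3.95 CPM to 14.2, 12.2 and 13.7 CPM (1.74 ± 0.13, adjusted p = 1.6e-10). IAA1 rose by 1.32 ± 0.11 (adjusted p = 2.0e-09). The transport genes PIN7 (-0.72 ± 0.08, adjusted p = 3.6e-08) and LAX1 (-0.70 ± 0.09, adjusted p = 8.1e-07) fell. PIF4, a light- and temperature-regulated growth factor, fell from 38.6, 35.0 and 42.3 CPM to 7.05, 5.28 and 7.29 CPM (-2.58 ± 0.14, adjusted p = 1.2e-12). Of the 9 PIF genes and targets 4 were higher and 5 lower. PIF1 fell by 1.11 (SE 0.12, adjusted p = 3.4e-08), PIF3 rose by 0.60 ± 0.10 (adjusted p = 1.5e-05) and the auxin synthesis gene YUC8 rose by 1.16 ± 0.13 (adjusted p = 1.2e-07).

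Expansins and the cell cycle changed little in size. Of 16 alpha expansin genes, wall-loosening proteins, 8 were higher, none by 2-fold, and 1 was lower. EXPA4 rose by 0.84 ± 0.09 (adjusted p = 3.1e-08), EXPA20 by 0.99 ± 0.12 (adjusted p = 2.3e-07), and EXPA8 fell from 7.53, 10.1 and 13.6 CPM to 3.5, 3.2 and 4.65 CPM (-1.48 ± 0.20, adjusted p = 1.1e-06). Of 30 mitotic and replication genes 11 were higher, 1 lower and 18 did not pass, and the list median of 0.12 turned to -0.02 with library totals. CYCD3;3, a D-type cyclin gene, rose by 0.77 ± 0.13 (adjusted p = 2.7e-05) and CYCD1;1 fell by 0.64 on the log2 scale (SE 0.09, adjusted p = 2.5e-06).

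Aquaporins, the water channels of the plasma and vacuolar membranes, were mostly lower. Of 23 tested 16 were lower, 8 of them at least 2-fold, and 2 were higher, with a median of -0.76. TIP1;2 was at 884, 982 and 1110 CPM at 0 h and at 392, 378 and 441 CPM at 6 h (-1.3 ± 0.12, adjusted p = 5.4e-09). PIP2;1 fell from 222, 325 and 349 CPM to 99.2, 100 and 122 CPM (-1.48 ± 0.14, adjusted p = 1.2e-08) and PIP1;2 by 1.29 on the log2 scale (SE 0.13, adjusted p = 1.4e-08). NIP6;1 and NIP5;1, boric acid channels, rose by 0.98 ± 0.10 (adjusted p = 1.8e-08) and 0.62 ± 0.09 (adjusted p = 1.9e-06). In the list of root and root hair markers, the endodermis genes CASP1, CASP2 and MYB36 fell as well. CASP1, of the Casparian strip, was at 12.2, 21.1 and 25.1 CPM at 0 h and 10.5, 10.4 and 12.8 CPM at 6 h (-0.79 ± 0.17, adjusted p = 0.00036). Its groups overlapped, as 0 h replicate 1 lay under the highest 6 h library. The whole root list went in both directions. Of its 13 genes 6 were lower, 0 of them by 2-fold, 2 were higher, 1 of them at least 2-fold, and 5 did not pass. The part of root RNA in the aquaporin values was not tested.

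Abscisic acid, cold and osmotic genes were lower in 18 of 24 and higher in 4, with a median of -0.75. RD26, a NAC factor gene of drought, was at 27.1, 21.4 and 33.3 CPM at 0 h and at 6.51, 6.86 and 6.58 CPM at 6 h (-2.02 ± 0.13, adjusted p = 2.3e-11). COR47, for a dehydrin, fell by 1.08 (SE 0.11, adjusted p = 4.7e-08), and HAB1, a phosphatase gene that restrains the pathway, by 1.16 on the log2 scale (SE 0.12, adjusted p = 2.9e-08). RD22 rose, from 56.6, 59.3 and 62.0 CPM to 143, 125 and 129 CPM (1.16 ± 0.08, adjusted p = 2.4e-11), and the receptor gene PYL6 rose by 0.72 ± 0.10 (adjusted p = 3.8e-06).

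Low-oxygen genes, which had been far above 0 h at 1 h (median 5.22), were under it at 6 h (median -1.02). Of 19 tested 13 were lower, 8 at least 2-fold, and 0 higher. PCO1 and PCO2, for plant cysteine oxidases that sense oxygen, were low at both times. PCO1 was at 6.53, 5.23 and 3.57 CPM at 0 h and at 1.41, 1.37 and 1.27 CPM at 6 h (-1.94 ± 0.21, adjusted p = 7.0e-08). PDC2, for a pyruvate decarboxylase, fell from 223, 236 and 248 CPM to 117, 133 and 131 CPM (-0.89 ± 0.08, adjusted p = 1.9e-09), and SRO5 by 1.16 on the log2 scale (SE 0.14, adjusted p = 2.5e-07). Several members were uneven at 0 h. LBD41 stood at 62.3, 6.83 and 17.0 CPM there, highest in replicate 1, and at 3.87, 3.84 and 4.32 CPM at 6 h. ADH1, for alcohol dehydrogenase, stood at 12.2, 45.1 and 11 CPM at 0 h, highest in replicate 2, and at 10.9, 12.3 and 11.1 CPM at 6 h, and did not pass.

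Heat shock genes were lower in 14 of 22 and higher in 4, with a median of -0.63. ROF2, a co-chaperone gene, was at 58.3, 99.3 and 98.3 CPM at 0 h and at 28.4, 28.7 and 22.6 CPM at 6 h (-1.67 ± 0.19, adjusted p = 1.0e-07). HSP101, the gene of the disaggregase needed for acquired heat tolerance, fell from 45.5, 81.5 and 86.0 CPM to 29.0, 27.5 and 27.2 CPM (-1.34 ± 0.19, adjusted p = 2.2e-06). The factor gene HSFB1 rose by 0.70 ± 0.09 (adjusted p = 1.3e-06), and the small heat shock gene HSP18.2 rose from 0.988 to 1.81 CPM at 0 h to 3.53 to 3.90 CPM at 6 h (1.31 ± 0.18, adjusted p = 2.5e-06).

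The remaining lists held few changes beyond the background or rested on single libraries. In the iron list 8 of 18 were lower and 3 higher, but FRO2, IRT1, BHLH38, BHLH39 and BHLH100 were each highest in 0 h replicate 2, and the count lower was 3 without that library and 11 without 0 h replicate 1. The ferritin gene FER1 fell by 0.69 (SE 0.15, adjusted p = 0.00033) and BTS, for an iron-sensing ubiquitin ligase, by 0.96 on the log2 scale (SE 0.14, adjusted p = 3.6e-06). NAS4, a nicotianamine synthase gene, rose by 0.57 ± 0.11 (adjusted p = 1.0e-04). Of 10 mitochondrial stress genes 5 were lower and 1 higher. AOX1D, an alternative oxidase gene, fell from 21.7, 32.4 and 27.1 CPM to 3.85, 5.50 and 3.90 CPM (-2.59 ± 0.22, adjusted p = 1.3e-09), and UGT74E2 by 2.72 on the log2 scale (SE 0.25, adjusted p = 4.5e-09), while NDB2 rose by 0.90 ± 0.10 (adjusted p = 1.8e-07). Of 11 Mediator subunit genes, parts of the bridge between factors and RNA polymerase, MED16 rose (0.72 ± 0.10, adjusted p = 2.0e-06) and MED14 and MED25 fell (-0.47 ± 0.10 and -0.43 ± 0.12).

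Outside the lists, the largest rises included pairs of like genes. AT4G12500 went from 22.8, 11.6 and 11.2 CPM to 1060, 1020 and 1030 CPM (6.08 ± 0.26, adjusted p = 2.2e-14) and its neighbour AT4G12490 from 80.0, 28.2 and 35.8 CPM to 1310, 1360 and 1370 CPM (4.81 ± 0.32, adjusted p = 2.4e-11). Both belong to a cluster of lipid-transfer-like genes on chromosome 4 that also holds pEARLI 1 (2.75 ± 0.19, adjusted p = 7.3e-11) and AZI1, known for its part in priming of systemic defence (2.61 ± 0.19, adjusted p = 9.9e-11). All 4 were highest at 0 h in replicate 1, and reads may be split among them. The C1-domain genes AT2G17740 (5.94 ± 0.22, adjusted p = 2.0e-15) and AT2G44370 (5.66 ± 0.17, adjusted p = 2.7e-16) rose together, from 2.31 to 5.54 CPM and 4.74 to 6.88 CPM at 0 h to 223 to 270 CPM and 295 to 333 CPM at 6 h.

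Further large rises were ATFRO5 (AT5G23990), a ferric reductase gene, from 0.278, 0.297 and 0.266 CPM to 12.4, 11.8 and 16.3 CPM (5.54 ± 0.25, adjusted p = 3.9e-14), and MLO12, of the family that powdery mildew fungi depend on, from 30.9, 13.9 and 18.7 CPM to 564, 517 and 518 CPM (4.65 ± 0.21, adjusted p = 3.6e-14). The ankyrin repeat gene AT4G03460 (4.74 ± 0.18), the lectin receptor kinase gene LECRKA4.2 (4.71 ± 0.20), AT5G61890 (4.84 ± 0.18), AT3G18250 (4.57 ± 0.23) and AT1G73120 (5.04 ± 0.17) complete the 15 largest with FRK1, WRKY30, BIP3 and ATNRT2.5. ATFRO5, which was close to the floor at 0 h, fell again by 2.48 (SE 0.19, adjusted p = 1.3e-09) from 6 h to 12 h.

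Among the largest falls, SQP1, of the squalene epoxidase family, went from 8.04, 14.7 and 17.7 CPM to 0.629, 0.542 and 0.705 CPM (-4.45 ± 0.36, adjusted p = 7.6e-10). ATFRO7 and ATFRO6, ferric reductase genes of the shoot, fell by 4.02 (SE 0.26, adjusted p = 1.4e-11) and 3.80 on the log2 scale (SE 0.26, adjusted p = 3.3e-11), against the rise of ATFRO5. ATFRO6 and ATFRO7 lie side by side on chromosome 5. NCED4, a carotenoid cleavage gene, fell from 13.9, 25.4 and 29.1 CPM to 1.46, 1.3 and 2.07 CPM (-3.89 ± 0.30, adjusted p = 3.0e-10). The defence peptide genes PDF1.2b (-3.51 ± 0.34, adjusted p = 1.4e-08) and the thionin gene AT1G66100 (-3.82 ± 0.36, adjusted p = 7.0e-09) fell, as did UGT76E12 (-3.51 ± 0.27, adjusted p = 2.1e-10). Further members of the 15 were the aldolase gene AT4G26530 (-4.12 ± 0.43), the transporter gene AT3G21670 (-4.24 ± 0.33), AT1G14250 (-4.18 ± 0.44), AT1G09500 (-3.88 ± 0.25), AT3G62550 (-3.55 ± 0.33) and AT2G15880 (-3.41 ± 0.28), with LHCB2.3 and VSP2.

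The most abundant transcripts changed places. By the authors' deposited table of FPKM values, which are scaled by length and carry no spread, RBCS1A went from 6540 to 3990 and LHCB1.3 from 7930 to 4700, while pEARLI 1 went from 1120 to 7600 and AZI1 from 982 to 6060. These were not the highest FPKM values, as AT2G01021, described at the end, was above them at both times though low in CPM at 0 h. In CPM, HA2, for the main plasma membrane proton pump, rose from 856, 690 and 707 to 3380, 3040 and 3420 (2.13 ± 0.10, adjusted p = 1.7e-13). ATCIMS (AT5G17920), for methionine synthase, rose by 0.92 ± 0.09 (adjusted p = 8.5e-09) and HOG1, for the hydrolase that recycles S-adenosylhomocysteine, by 1.03 ± 0.09 (adjusted p = 5.3e-09).

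The 6 h level was then set against 1 h and 12 h with direct tests between those times. Levels differed between 6 h and 1 h in 14512 genes (69.1%, 34.7% higher and 34.4% lower at 6 h) and between 12 h and 6 h in 11110 (52.9%, 26.4% higher and 26.5% lower at 12 h). Of the 1168 genes at least 2-fold higher at 6 h than at 0 h, 683 were further from 0 h at 6 h than at 1 h, 263 were nearer to it and 222 did not differ by the test. From 6 h to 12 h, 605 of them moved further, 144 came back and 419 did not pass, and 111 were furthest at 6 h in both tests. Of the 1425 at least 2-fold lower, 1122 were further from 0 h at 6 h than at 1 h and 41 nearer. From 6 h to 12 h 271 moved further, 359 came back and 795 did not pass. BIP3, ATFRO5, CRK21 and CP12-2 were among those furthest at 6 h. The genes were chosen by their distance from 0 h at 6 h, which these counts share, so they are a description.

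**Figure D4:**
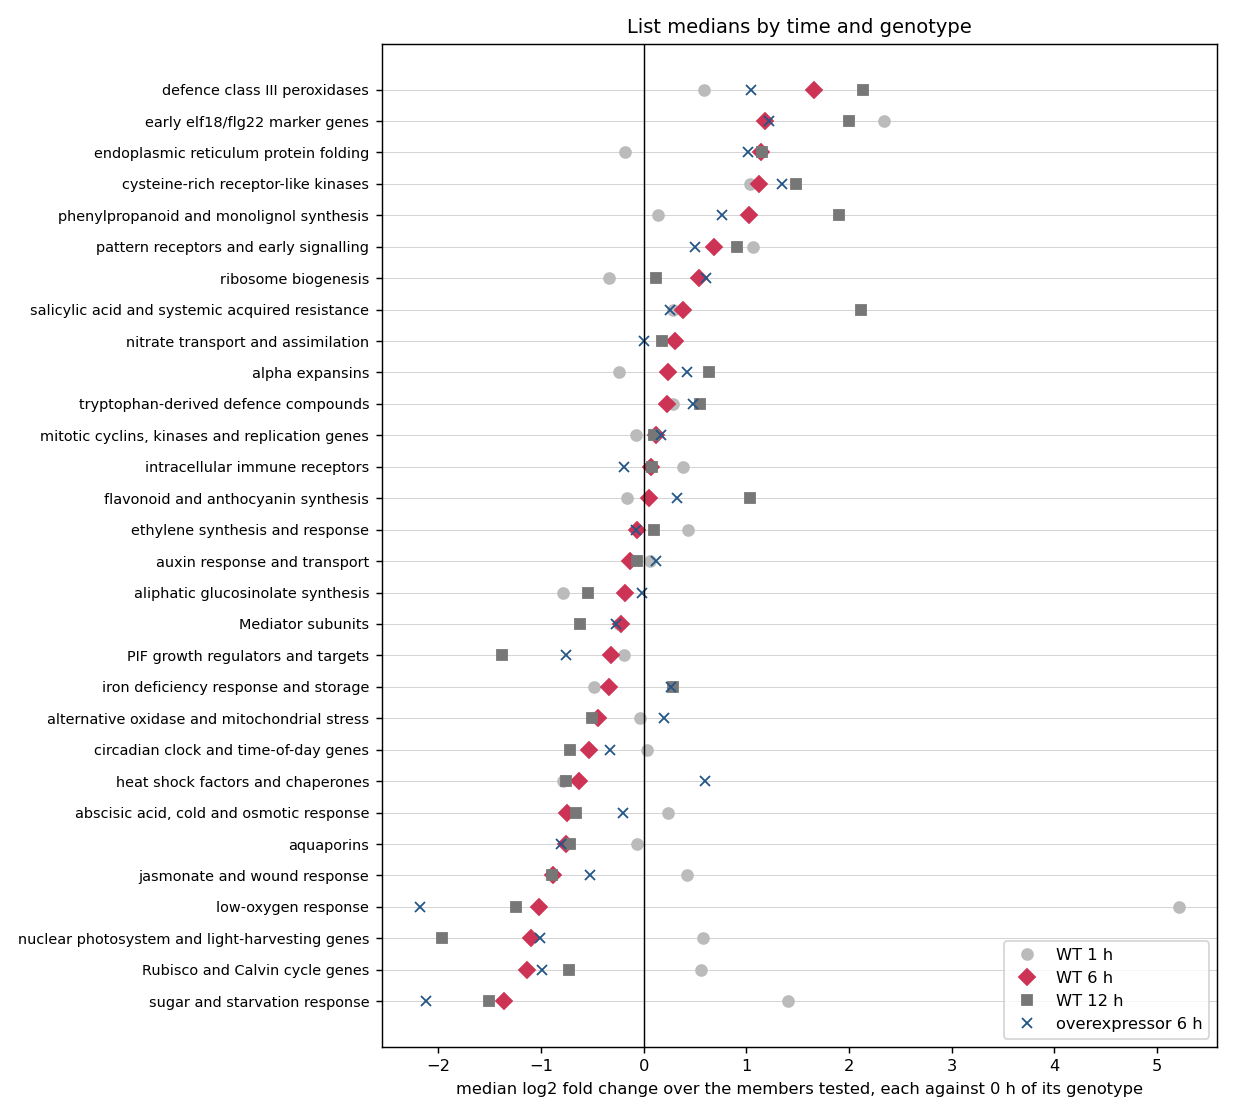
Median log2 fold change of the tested members of 30 lists, each group against the 0 h libraries of its own genotype (grey circles wild type 1 h, red diamonds wild type 6 h, dark squares wild type 12 h, blue crosses overexpressor 6 h). Low-oxygen, sugar, jasmonate and photosynthesis lists lie above 0 at 1 h and under 0 at 6 h, and protein folding lies at -0.18 at 1 h and 1.14 at 6 h.

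The overexpressor, which shares no library with the wild type, was set beside it at 6 h. There 12372 genes (58.9%) differed between 6 h and 0 h, 30.1% of those tested higher and 28.8% lower, with 6.14% at least 2-fold higher and 5.87% at least 2-fold lower. In all, 9473 genes passed in both genotypes in the same direction, 78.0% of the wild-type calls and 76.6% of those of the overexpressor, against 127 in opposite directions. At 2-fold or more, 1731 genes were shared in direction, 66.8% of the wild-type and 68.6% of the overexpressor set, and 4 were opposite. EFR rose by 1.38 ± 0.08 in wild type and 1.21 ± 0.08 in the overexpressor, and FRK1 by 5.55 ± 0.31 and 4.57 ± 0.30, without a call on the difference (adjusted p = 0.44 and 0.12). The photosystem list had a median of -1.10 in wild type and -1.01 in the overexpressor with 0 of 37 members differing between the genotypes, and protein folding 1.14 and 1.02 with 1 of 22.

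The difference of the responses itself passed for 1333 genes (6.34%), 720 (3.43%) with the higher value in the overexpressor and 613 (2.92%) with the lower, and for 393 (15.2%) of the 2593 genes changed at least 2-fold in wild type. Those 2593 were chosen by a large change in wild-type libraries that also enter the difference, so the 15.2% cannot be read against the 6.34%. The count of 1333 ranged from 747 to 2244 when single libraries were left out, lowest without wild-type 0 h replicate 2 and highest without wild-type 0 h replicate 1. In the heat shock list 13 of 22 members differed, with medians of -0.63 in wild type and 0.60 in the overexpressor. The genotypes were further apart at 0 h than at 6 h in HSP101 and ROF2. HSP101 was at 71.0 ± 22.2 CPM (SD, n = 3) in wild type and 13.9 ± 0.895 CPM in the overexpressor at 0 h, and at 27.9 ± 0.942 and 20.8 ± 3.32 CPM at 6 h. ROF2 was at 85.3 ± 23.4 and 19.7 ± 2.72 CPM at 0 h and at 26.6 ± 3.45 and 23.5 ± 4.22 CPM at 6 h. Members also differed among sugar and starvation genes, with 14 of 19 (medians -1.36 and -2.12), phenylpropanoid genes with 8 of 19 (1.03 and 0.76) and low-oxygen genes with 7 of 19 (-1.02 and -2.18). PR1, which fell in wild type, was at a log2 fold change of -0.17 ± 0.27 in the overexpressor, a difference of 2.09 (adjusted p = 0.0027). PAL1 rose by 2.29 ± 0.14 in wild type and 1.49 ± 0.14 in the overexpressor (adjusted p = 0.012 for the difference).

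**Figure D5:**
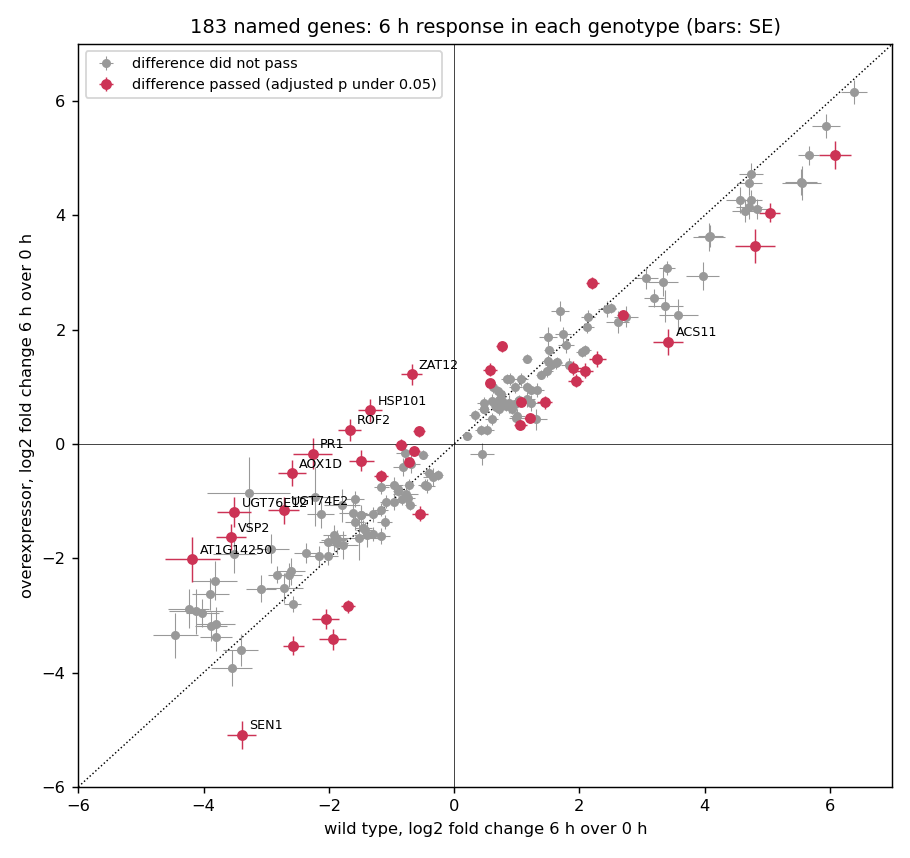
Log2 fold change from 0 h to 6 h of the 183 named genes in wild type (horizontal) and in the overexpressor (vertical), with SE bars and a dotted line of equality. The 38 genes whose responses differed between the genotypes are red, and those 1.5 log2 units or more apart are labelled, from SEN1 (-3.39 in wild type, -5.09 in the overexpressor) to UGT76E12 (-3.51 and -1.19).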

How the data were processed

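Polyadenylated RNA was sequenced as stranded single reads of 75 cycles, per the labels' protocols. Tools in the submitters' processing notes are Cufflinks 2.1.1 with Cuffdiff and TopHat2 2.0.8, beside DESeq2, on TAIR10. The deposited counts are whole reads per locus and library, but which program counted them, and whether it used strand, is not given here in any source. The deposited FPKM table holds 1 authors' value per group. All counts of the 24 libraries were fitted with edgeR 4.0.16 in R 4.3.3 (quasi-likelihood, 8 group means, TMM scaling, minimum count of 10), and p-values were adjusted by Benjamini-Hochberg over 21015 loci with a threshold of 0.05. CPM values are TMM-scaled. Each SE is the size of the log2 fold change divided by the square root of the F statistic of its quasi-likelihood test. It therefore rests on the spread estimated from all 24 libraries, not from the groups compared alone. Totals ran from 18767661 to 85230211 counts a library. Nothing says whether the biological replicates came from separate plates, so p-values measure the spread between these samples.

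The gene lists and the members described were chosen with earlier results of these data known. Named genes were EFR, FLS2, FRK1 and PR1, up to 4 members of each list with the smallest adjusted p and up to 2 of the opposite direction, the 15 largest changes each way among called genes that did not overlap between the groups and averaged a log2 CPM of 1 or more, and the 10 most abundant loci of each group. These are 183 genes, and other list members named were chosen after their values were seen. Of 700 list loci 690 were in the table and 689 were tested. In simulated data made for this comparison, with 50 genes changed at each size among 21015, the test recovered 7 at 1.25-fold, 34 at 1.5-fold, 41 at 2-fold and 50 at 4-fold. Far fewer genes were changed there than were called in the real data, which makes the adjusted threshold stricter. Alternatives were DESeq2 1.42.0, other scalings, no filter, fewer groups, a replicate block, thinned libraries and single libraries left out. Figures were drawn with matplotlib 3.10.9.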

Additional observations from a re-analysis of the deposited data

Results flagged for a closer look

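For 38 of the 183 named genes the response from 0 h to 6 h differed between the ELENA1 overexpressor and the wild type, by edgeR's test of the difference of the 2 responses (adjusted p under 0.05). Over all genes the difference passed for 1333 of 21015 (6.34%), and most of the 183 were picked for a small p or a large change in the same wild-type libraries, so the counts cannot be read against each other. Values are the overexpressor's log2 fold change minus that of the wild type. The difference was positive for 19 genes. Among those that fell in wild type it was 2.32 for UGT76E12, 2.16 for AT1G14250, 2.09 for PR1, 2.08 for AOX1D and 1.94 for VSP2. It was 1.93 for HSP101, 1.92 for ROF2, 1.90 for ZAT12 and 1.56 for UGT74E2. Smaller positive differences were 1.19 for EXPA8, 0.96 for EXPA5, 0.85 for PYK10, 0.78 for ANAC013, 0.73 for NAS4, 0.61 for PEPR1, 0.60 for ERDJ3A, 0.51 for CYCD1;1, 0.48 for STP13 and 0.40 for PIN7.

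The difference was negative for the other 19 genes. It was -1.70 for SEN1, -1.63 for ACS11, -1.47 for PCO1, -1.34 for AT4G12490, -1.14 for BGAL4, -1.02 for AT4G12500 and -1.01 for PCO2. It was -0.99 for AT1G73120, -0.96 for TPS11, -0.83 for GH3.5, -0.81 for C4H, -0.80 for PAL1, -0.76 for STP4, -0.73 for RPM1, -0.72 for ZAR1, -0.68 for NIA1, -0.57 for GH3.3, -0.43 for CRK21 and -0.33 for PBL1. Over all genes the number of such differences moved with single libraries of both times, to 2244 without wild-type 0 h replicate 1, 747 without wild-type 0 h replicate 2 and 775 without wild-type 6 h replicate 1, and the cause was not tested.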

How the results depend on the processing

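Of 12152 genes called between 6 h and 0 h, the count was 12049 with DESeq2, 12163 with RLE size factors, 12483 with library totals, 12000 with wild-type libraries alone, 11460 with the compared groups alone, 12173 without the filter, 11176 with thinned libraries, 13157 without 3 libraries with a steep length trend, and 10814 to 12056 without single libraries. The 3 steep libraries were overexpressor 1 h replicate 1, overexpressor 6 h replicate 1 and wild-type 12 h replicate 3. None is among the 6 libraries compared, but the last 2 enter the genotype and 12 h comparisons. The labels do not say that replicate numbers pair the samples. Same-numbered libraries had correlations of deviations of 0.15, 0.01 and 0.19, not all over 0.1, and 5 of 6 libraries correlated best with their own number, a hint from the data only. Replicate 3 was the shallowest library of every group. A replicate block gave 12519. Of 183 named genes 4 lost the call under at least 1 of 15 alternatives, and 0 changed sign.

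The count of differences between the genotypes' responses, 1333, was 691 with the compared groups alone and 747 to 2244 without single libraries. It was 775 without wild-type 6 h replicate 1 and 869 without overexpressor 0 h replicate 3. Mitotic genes higher, 11, were 6 with library totals. Mediator genes lower, 2, were 6 with library totals, 5 with the compared groups alone, 5 without the 3 steep libraries and 2 to 4 without single libraries, with 4 without 6 h replicate 1. Iron genes lower, 8, were 3 to 11 without single libraries, with 3 without 0 h replicate 2 or 6 h replicate 2 and 4 without 6 h replicate 1. Mitochondrial stress genes lower, 5, were 3 to 6, with 3 without 6 h replicate 1. The causes were not tested. Wild-type libraries alone give no value for the overexpressor. In simulated data at this depth 7 of 50 changes of the smallest size tried were recovered, so small changes can be missed. Far fewer genes were changed there than the 57.8% called here, so the share recovered is not that of this comparison.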

Other observations

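Gene families found by annotation keyword gave further counts for 6 h against 0 h in wild type, where 29.8% of all genes tested were higher and 28.1% lower. Cytochrome P450 genes were lower in 74 and higher in 31 of 157, with 27 at least 2-fold lower, 14 at least 2-fold higher and a median of -0.39. UDP-glycosyltransferases, which attach sugars to small molecules, were lower in 47 and higher in 29 of 120, and subtilases, secreted proteases, were lower in 20 and higher in 5 of 34 with a median of -0.28. Histone genes were higher in 43 and lower in 10 of 78, with a median of 0.36. Wall-associated kinases were higher in 10 and lower in 2 of 16.

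AT2G01021, chosen after its values were seen, was at 7.34, 7.92 and 9.04 CPM at 0 h and at 228, 16.9 and 9.40 CPM at 6 h (3.41 ± 0.72 on the log2 scale, adjusted p = 0.00033). The size of this change rests on 6 h replicate 1. By the authors' deposited table its FPKM value was 10100 at 0 h and 105000 at 6 h.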
